A study of Saccharomyces cerevisiae with 72 samples.

Results

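Yeast cells (Saccharomyces cerevisiae) that lack both GCN4 and GLN3 were set against cells that lack GLN3 alone, all of them in rapamycin. By their labels the strains differ in GCN4, and the difference is named below as the effect of losing GCN4. Any other differences between the strains would be part of it. The comparison takes 7 of the 72 arrays of the study. They are 3 arrays of the gcn4 gln3 deletion strain KY643 (replicates 1, 3 and 4) and 4 arrays of the gln3 deletion strain KY640. Replicate 2 of gcn4 gln3 was left out as an outlying array. Both strains grew in synthetic complete medium without histidine, with dextrose at 2% as the carbon source and ammonium sulfate at 0.5%, and both received 200 nM rapamycin for 1 h. The other groups used here are gcn4 gln3 and gln3 cells without drug (4 arrays each), gcn4 and wild-type cells in rapamycin (4 arrays each), and gcn2 gln3 cells in rapamycin (3 arrays). The fit also holds all other groups of the study, among them the gcn2 deletion strain and cells of every strain in 3-aminotriazole (3-AT). Signal ranges of NFS1 and of 4 unnamed probe sets are given over all strains and treatments (no drug, rapamycin and 3-AT). The labels do not say how the strains were made or whether replicates were separate cultures, so the p-values cover the spread of these samples, which may be technical.

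Gcn4 is the transcription activator of amino acid biosynthesis in yeast. Its mRNA is translated when the kinase Gcn2 senses uncharged tRNA and phosphorylates the initiation factor eIF2, and the protein is short-lived. Gln3 is a GATA-type activator that is held in the cytoplasm in good nitrogen sources and enters the nucleus to induce permeases and enzymes for poor nitrogen sources. Rapamycin inhibits the TORC1 kinase, and this inhibition is known both to release Gln3 and to raise Gcn4 activity.

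The strains matched their labels at the deleted genes. GCN4 gave signals of 46, 5 and 29 in gcn4 gln3 cells, none above background, against 14799, 16875, 15734 and 17914 in gln3 cells, which makes it at least 203-fold lower. GLN3 was above background on none of the 7 arrays. GCN2, the kinase gene both strains keep, was 271, 262 and 294 in gcn4 gln3 cells and 295, 259, 294 and 276 in gln3 cells, and the groups overlapped. Of the receptor genes that mark the mating type, the MATa gene STE2 was above background on none of the 7 arrays. The MATalpha gene STE3 ran from 1942 to 2421 in gcn4 gln3 cells and from 1785 to 2314 in gln3 cells.

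Signals are linear array intensities scaled to a common mean, and the background of the 7 arrays lay between 72.5 and 88.7. The 3'/5' signal ratio of actin, a sign of RNA quality, was 1.78, 2.56 and 1.70 in gcn4 gln3 replicates 1, 3 and 4, and 3.20, 1.56, 1.69 and 1.75 in gln3 replicates 1 to 4. On the array left out it was 43.2, and that array correlated with the others at a mean of 0.542. Leaving out the array with the highest ratio of each group gave 228 called probe sets in place of 278, with 192 called in both. That setting was chosen after the data were seen. With the actin ratio as a covariate, also added after the data were seen, 332 were called, among them all 278.

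More probe sets were lower than higher in gcn4 gln3 cells, and by more. Of 6865 probe sets tested 278 (4.05%) were called, 185 lower and 93 higher in gcn4 gln3 than in gln3 cells (2.69% and 1.35%), with limma's p adjusted over all probe sets and called below 0.05. Among them 115 (1.68% of those tested) changed at least 2-fold, 98 lower and 17 higher (1.43% and 0.248%). The median log2 difference was -1.07 for the called falls and 0.66 for the called rises, against 0.01 for all probe sets. The 2 groups did not overlap for 171 of the 185 falls and 81 of the 93 rises, while over all probe sets 5.62% lay lower and 4.38% higher without overlap. The called sets were chosen on these same arrays, so their medians and their separation follow in part from that choice. The count depends on how the spread is estimated: with the replicate number as a block 308 were lower and 177 higher, and with only the 7 arrays in the fit 80 were lower and 13 higher. Without gcn4 gln3 replicate 1 the total was 182 in place of 278. With its one-sided p doubled, an exact permutation test of 3 arrays against 4 cannot go below 0.0571, so single genes rest on the fit across all probe sets.

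After GCN4 itself the largest falls among named genes were SNZ1 and SNO1 of vitamin B6 synthesis, in a list with 3 of 4 tested genes lower (4 with the replicate block). SNZ1, which encodes a subunit of the vitamin B6 synthase, had signals of 744, 1108 and 911 in gcn4 gln3 cells, against 8644, 6791, 7760 and 7339 in gln3 cells. This is a log2 difference of -3.06 ± 0.15 (SE, adjusted p = 9.06e-24), 8.36-fold lower. Its neighbour and partner SNO1 was 487, 635 and 463 in gcn4 gln3 cells, against 4752, 3811, 4373 and 3690 in gln3 cells, 7.90-fold lower. Every gcn4 gln3 array was low for both genes and the groups were far apart. HOM3, aspartate kinase at the head of threonine and methionine synthesis, was 524, 512 and 585 in gcn4 gln3 cells, against 3791, 3101, 2788 and 2875 in gln3 cells, with a log2 difference of -2.53 ± 0.18.

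Other large falls were in genes outside the amino acid biosynthesis lists. ALD5, a mitochondrial aldehyde dehydrogenase, averaged 322 ± 36.3 in gcn4 gln3 cells and 1820 ± 229 in gln3 cells (SD, n = 3 and 4), a log2 difference of -2.50. ADH5, an alcohol dehydrogenase isozyme, had -2.29 and was the 1 of 7 aromatic amino acid breakdown genes that was called. ARO5 had -2.60, a larger fall than that of HOM3. The carnitine acetyltransferase genes YAT2 and YAT1 had -2.16 and -1.70. TMT1, a methyltransferase that acts on trans-aconitate, had -1.79. PCL5, the cyclin that directs the Pho85 kinase to Gcn4 for its degradation, was 1133, 566 and 740 in gcn4 gln3 cells, against 3173, 4243, 3254 and 3702 in gln3 cells, a log2 difference of -2.19 ± 0.21 (adjusted p = 2.11e-12). In 2 of the 20 largest falls, TEA1 and YKL033W-A, the groups overlapped, and with only the 7 arrays in the fit neither passed (adjusted p = 0.413 and 0.361).

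**Figure D1:**
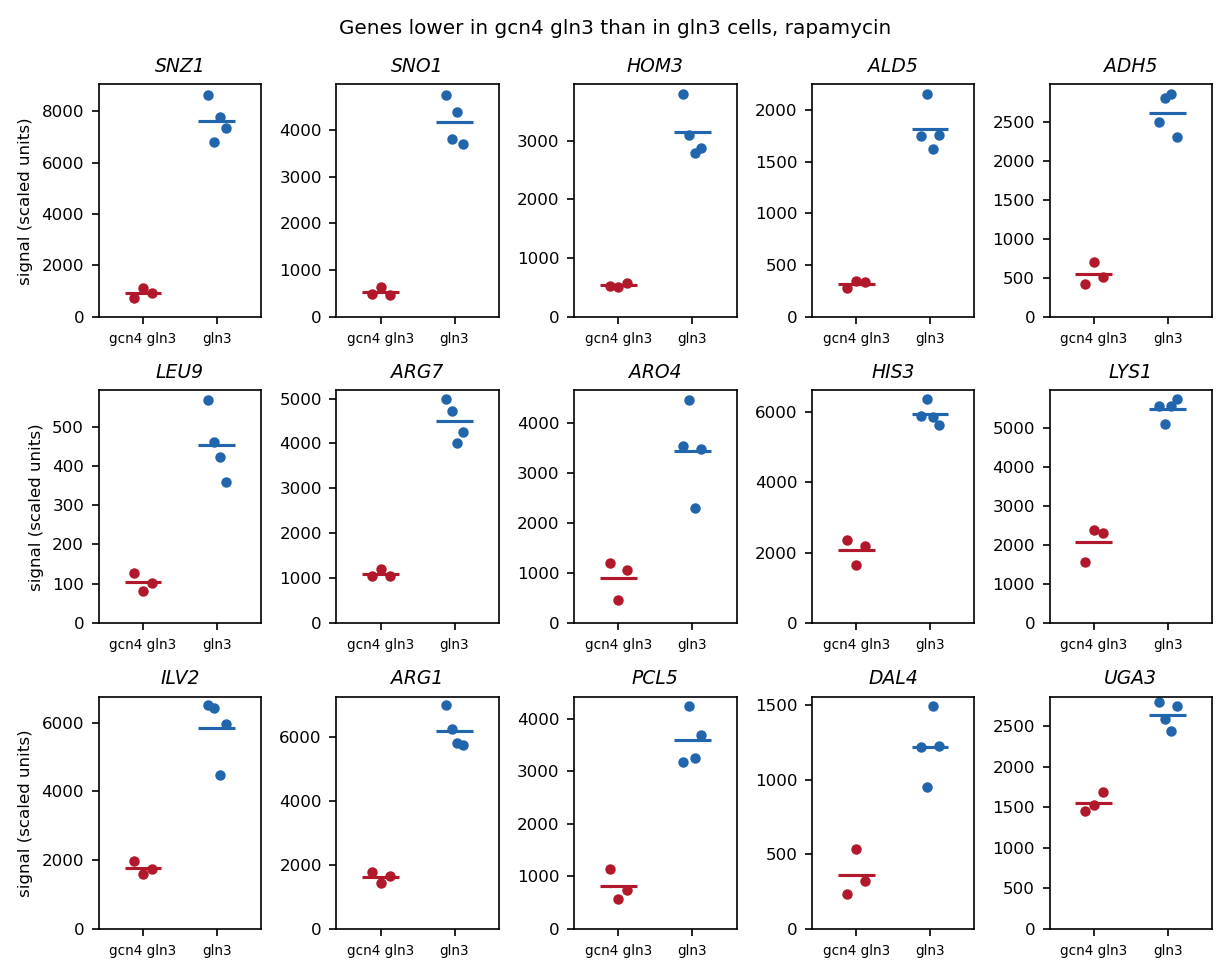
Signal of 15 genes on each array, in rapamycin (vertical axes start at 0, scaled units). Red points are the 3 gcn4 gln3 arrays and blue points the 4 gln3 arrays, with the group mean as a bar. In all 15 panels every gcn4 gln3 array lies below every gln3 array.

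Amino acid biosynthesis fell across pathways. In 6 lists (histidine, arginine, lysine, branched-chain, aromatic and aspartate family) 58 genes were tested, of which 41 were lower and 0 higher, and 1 had an unadjusted p under 0.05 in the higher direction. Their median log2 difference was -0.81, against 0.01 for all probe sets, of which 2.69% were called lower. Leaving out any 1 of the 7 arrays gave 39 to 42 members lower, and the replicate block gave 45 lower and 1 higher. The fit of only the 7 arrays gave 25, with histidine 3, arginine 6, lysine 2, branched-chain 4, aromatic 6 and aspartate family 4.

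In arginine synthesis 7 of 8 tested genes were lower, with a median of -1.28. ARG7, mitochondrial ornithine acetyltransferase, was 1041, 1197 and 1037 in gcn4 gln3 cells, against 4981, 4717, 4018 and 4265 in gln3 cells (log2 difference -2.04 ± 0.12, adjusted p = 8.20e-21). ARG1, argininosuccinate synthetase, was 1799, 1433 and 1670 in gcn4 gln3 cells, against 7006, 6257, 5839 and 5772 in gln3 cells (-1.93 ± 0.16). ARG3, ornithine carbamoyltransferase, had -1.61 and ORT1, the ornithine carrier of the mitochondrial membrane, -1.29. ARG4, argininosuccinate lyase, was 6401, 6009 and 6571 in gcn4 gln3 cells and 14834, 16027, 12729 and 18212 in gln3 cells (-1.28). ARG8, acetylornithine aminotransferase, had -0.56 and an adjusted p of 0.0640 in limma, and was called with the replicate block (adjusted p = 0.0320), which made it 8 of 8.

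In histidine synthesis, the pathway for the amino acid missing from the medium, 6 of 7 genes were lower. HIS3, imidazoleglycerol-phosphate dehydratase, was 2353, 1650 and 2194 in gcn4 gln3 cells, against 5902, 6382, 5852 and 5632 in gln3 cells (-1.54 ± 0.15, adjusted p = 2.42e-12). HIS1, HIS4, HIS5 and HIS7 had -1.00, -0.86, -1.17 and -1.42. HIS6 was called at -1.27, but 1 gcn4 gln3 array was at 5 and the others at 157 and 148, close to the 166 to 190 of gln3 cells. HIS2 did not pass, at -0.12.

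The branched-chain list had 8 of 12 genes lower. LEU9, the minor isozyme of α-isopropylmalate synthase, was 127, 81 and 103 in gcn4 gln3 cells, against 568, 461, 424 and 359 in gln3 cells, 4.39-fold lower. The major isozyme LEU4 had a smaller difference of -0.63. ILV2, acetolactate synthase, had -1.71 and its regulatory subunit ILV6 had -1.17. LEU2 was 4155, 2987 and 4017 in gcn4 gln3 cells and 2216, 2774, 2671 and 3284 in gln3 cells, overlapping, with 0.44 and an adjusted p of 0.167, or 0.0257 with the replicate block. BAT1, the mitochondrial transaminase, had -0.79 (adjusted p = 0.0241), while the cytosolic BAT2 had 0.01.

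The aromatic list had 9 of 13 genes lower. ARO4, one of the DAHP synthases that open the pathway, had -2.01 and ARO3, the other, -1.17. ARO1, the enzyme of 5 consecutive steps, was tightly grouped, with 6088, 5802 and 5413 in gcn4 gln3 cells and 15410, 14821, 14900 and 16560 in gln3 cells (-1.42 ± 0.09). The tryptophan genes TRP2, TRP3, TRP4 and TRP5 had -1.31, -1.11, -1.06 and -0.57. TRP1 was not called, at -0.01, and neither was ARO7, at -0.06.

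In lysine synthesis 5 of 9 genes were lower, led by LYS1, saccharopine dehydrogenase, with 1551, 2380 and 2294 in gcn4 gln3 cells and 5550, 5081, 5563 and 5742 in gln3 cells (-1.43 ± 0.13). LYS2, LYS4, LYS20 and LYS21 had -1.09, -0.76, -0.74 and -0.76. The pathway's activator gene LYS14 had -0.50 and was not called (adjusted p = 0.0747), but was with the replicate block (adjusted p = 0.0257), where 7 of the 9 genes were lower. In the aspartate family 6 of 9 genes were lower: besides HOM3 they were HOM2 (-1.24), THR1 (-0.79), THR4 (-0.55) and the asparagine synthetase genes ASN1 (-1.29) and ASN2 (-0.93). HOM6, homoserine dehydrogenase, was not called, at 0.18.

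Sulfur amino acids were set apart from these 6 lists. Of 26 genes for sulfate assimilation, methionine and cysteine 3 were lower and 1 higher, against 2.69% and 1.35% of all probe sets. The list median was 0.13. The 3 that were lower were SAM4 (-1.50), which methylates homocysteine, the cystathionine synthase gene STR2 (-1.22) and MET13 (-1.17), a methylenetetrahydrofolate reductase. The 1 that was higher was MET14, adenylylsulfate kinase, with 896, 1037 and 919 in gcn4 gln3 cells and 593, 648, 548 and 503 in gln3 cells (0.73 ± 0.19, adjusted p = 0.0140). MET14 was not called without gln3 replicate 4, without the 2 arrays of highest actin ratio, or with only the 7 arrays in the fit. The proline, glutamate and glutamine lists had 0 of 3 and 0 of 5 genes called by limma, with 1 and 0 at an unadjusted p under 0.05.

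Several genes outside amino acid synthesis fell beside these pathways. For biotin and thiamine 5 of 13 genes were lower, against 2.69% of all probe sets. The count was 3 without gcn4 gln3 replicate 1, 1 with only the 7 arrays in the fit, 7 with the replicate block and 9 with all 72 arrays. Among the 5 were the adjacent biotin genes BIO3, BIO4 and BIO5, at -0.73, -1.37 and -1.58. BIO5, the transporter of a biotin precursor, was 546, 1280 and 1432 in gcn4 gln3 cells and 2985, 2650, 2365 and 4249 in gln3 cells. Untreated, 5 of the 13 biotin and thiamine genes were lower as well, and 0 passed the test of rapamycin against untreated cells given below. Of the mitochondrial carrier genes 6 of 29 were lower in rapamycin, against 0 untreated. Besides ORT1 these included GGC1, the GTP/GDP carrier, at -1.34, and the related YMC1 and YMC2 at -0.98 and -1.35.

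Among 21 cytosolic aminoacyl-tRNA synthetase genes 5 were lower and 0 higher, against 2.69% and 1.35% of all probe sets. In the higher direction 0 had an unadjusted p under 0.05, and the list median was -0.25. With only the 7 arrays in the fit 2 were lower, and with all 72 arrays 10. The lower ones were YHR020W (-1.23), the isoleucyl enzyme ILS1 (-0.87), the asparaginyl enzyme DED81 (-0.70), the lysyl enzyme KRS1 (-0.64) and YDR341C (-0.48). In the list of Gcn2, eIF2 and Gcn4 turnover genes 2 of 20 were lower, GCN4 itself and PCL5, against 2.69% of all probe sets. The eIF2B subunit genes GCN3, GCD1, GCD2, GCD6 and GCD7 lay between -0.07 (GCN3) and 0.12 (GCD7). Some called genes stand next to each other in the RefSeq R64 annotation: HIS7 and ARO4 on chromosome II, ARG3 and SIP4 on X, and CTF13, SNO1 and SNZ1 on XIII. CTF13 and SIP4 were singled out for this position after their values were seen. CTF13, a kinetochore gene, was above background on no gcn4 gln3 array and at least 1.39-fold lower than in gln3 cells. SIP4, an activator of gluconeogenic genes, had -1.40 and was above background on 1 of the 3 gcn4 gln3 arrays.

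**Figure D2:**
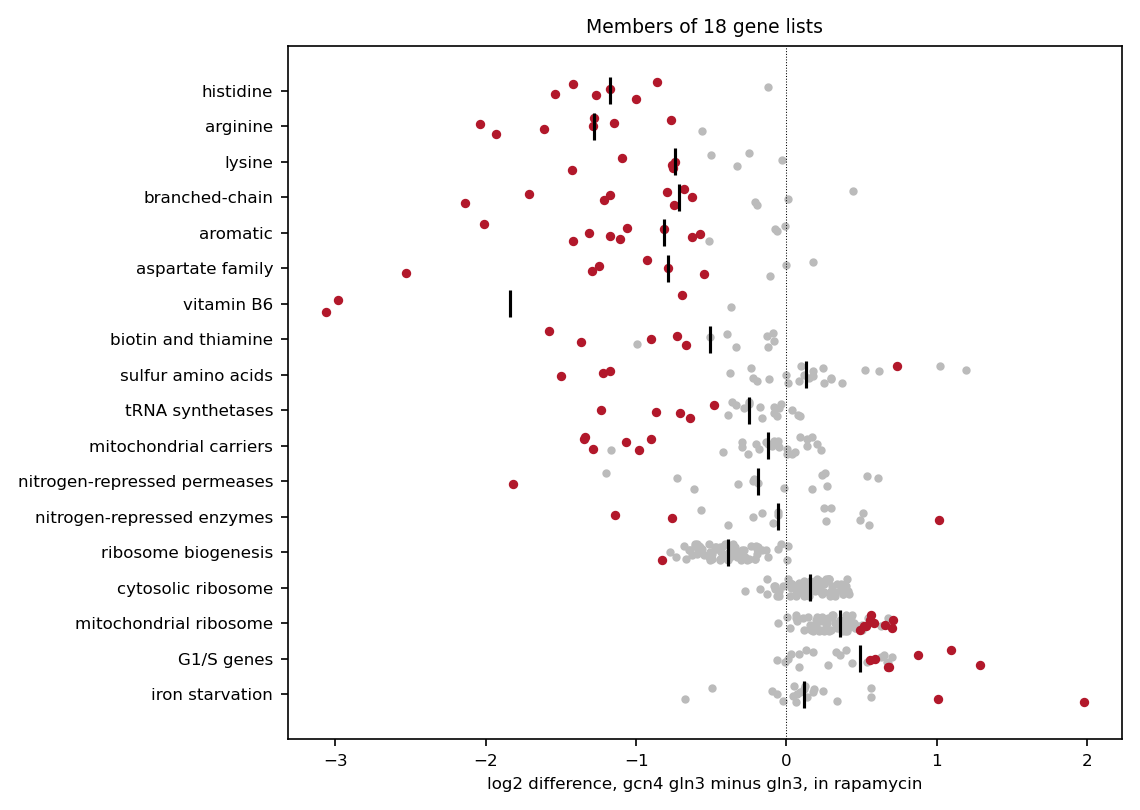
Log2 difference of each tested member of 18 gene lists, gcn4 gln3 minus gln3 in rapamycin (horizontal axis), with red points for members that passed (adjusted p below 0.05), grey points for the others and black bars for list medians. The 6 amino acid lists at the top have medians from -1.28 to -0.72, while the sulfur amino acid list has 0.13.

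Genes that Gln3 and the other GATA factors control were taken as 2 lists, in which 1 of 15 and 3 of 16 tested genes were called, against 4.05% of all probe sets. Of 15 permease genes under nitrogen repression 1 was lower (2 with the replicate block, 5 with all 72 arrays) and 0 higher, with 0 at an unadjusted p under 0.05 in the higher direction. GAP1, the general amino acid permease, was 6337, 5037 and 6181 in gcn4 gln3 cells and 4575, 5306, 5668 and 5214 in gln3 cells, with 0.17 and an adjusted p of 0.849. The ammonium permease MEP2 had 0.23 and the dicarboxylic amino acid permease DIP5 -0.19. The 1 that was lower was DAL4, the allantoin permease, with 236, 536 and 318 in gcn4 gln3 cells and 1220, 950, 1495 and 1224 in gln3 cells (-1.82 ± 0.28, adjusted p = 3.77e-06).

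Of 16 catabolic genes under nitrogen repression 2 were lower and 1 higher. The count of lower genes was 1 without gcn4 gln3 replicate 3, without the 2 arrays of highest actin ratio or with only the 7 arrays in the fit. With all 72 arrays 5 were lower and 0 higher. UGA3, the activator of the genes for GABA use, was 1450, 1531 and 1683 in gcn4 gln3 cells, against 2795, 2587, 2434 and 2740 in gln3 cells (-0.76 ± 0.11), and the amidase gene AMD2 had -1.14. APE1, a vacuolar aminopeptidase, was 11251, 9353 and 12310 in gcn4 gln3 cells, against 4218, 5467, 6489 and 5695 in gln3 cells (1.01 ± 0.20), but with all 72 arrays in the fit its value was -0.11 and it was not called. The proline oxidase gene PUT1 had -0.57 and an adjusted p of 0.147. The GATA factor genes GAT1, DAL80 and GZF3 and their regulator URE2 had -0.30, 0.29, 0.02 and -0.20, and 0 of the 5 genes of that list passed in limma, with 0 at an unadjusted p under 0.05. Autophagy genes gave 0 of 30 called, with 0 at an unadjusted p under 0.05.

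Fewer genes rose. Of the 15 largest named rises 0 kept their call in every alternative setting tried, against 18 of the 20 largest falls. The deleted gene GCN4 was among those 18. A single lost call counts as a failure here: FET3, NFS1, HO, APE1, RAD27 and RBH2 each lost theirs in 1 of 22 settings. The other rises lost theirs in 2 (RNR1, POL1) to 8 (SPC97) settings. For APE1 that setting was the fit that takes back the arrays left out. FET3, the ferroxidase of high-affinity iron uptake, was 3398, 2011 and 4397 in gcn4 gln3 cells, against 521, 948, 579 and 1351 in gln3 cells, with a log2 difference of 1.98 ± 0.32 (adjusted p = 6.49e-06). TIS11, a protein that binds mRNAs for degradation in low iron, was 1113, 1148 and 960 in gcn4 gln3 cells and 454, 442, 597 and 672 in gln3 cells (1.01 ± 0.29). These were the 2 of 21 iron genes that were called, against 4.05% of all probe sets. The partner permease FTR1 had 0.24 and the siderophore transporter ARN1 0.33. TIS11 lost its call in 7 of 22 alternative settings, among them leaving out gcn4 gln3 replicate 1 or 3 or gln3 replicate 1 or 2.

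Genes of the G1/S transition formed a group among the rises, with 7 of 26 higher and 0 lower (0 at an unadjusted p under 0.05 in the lower direction) and a median of 0.49. Over all probe sets 1.35% were higher, and the replicate block gave 10 of the 26. Untreated, 7 of the 26 were also higher (median 0.45), and 0 passed the test of rapamycin against untreated cells given below. In gcn4 against wild-type cells in rapamycin 19 were higher (median 0.90). The difference without and with GLN3 passed for 3 in the negative direction and 0 in the positive. RNR1, the large subunit of ribonucleotide reductase, was 3352, 2222 and 2414 in gcn4 gln3 cells, against 1614, 1082, 1005 and 750 in gln3 cells (1.29 ± 0.23). The G1 cyclin gene CLN1 had 0.68, the polymerase α gene POL1 0.88 and the single-strand binding protein gene RFA2 0.59. HO, the mating-type endonuclease, had 1.10, with 1591, 1707 and 1445 in gcn4 gln3 cells and 1233, 809, 637 and 466 in gln3 cells. Without gcn4 gln3 replicate 3 or gln3 replicate 4 there were 4 of these members higher, and in the fit of only the 7 arrays 0.

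Mitochondrial ribosomal protein genes had 9 of 69 higher and 0 lower (0 at an unadjusted p under 0.05 in the lower direction) and a median of 0.35. That count ranged from 1 without gcn4 gln3 replicate 1 to 13 over the 7 fits that left out an array, and was 18 with the replicate block and 0 in the fit of only the 7 arrays. Of 81 cytosolic ribosomal protein genes 0 were called in limma, with 7 higher at an unadjusted p under 0.05 and a median of 0.16, and 4 were called higher with the replicate block. Ribosome biogenesis genes had a median of -0.39, and 1 of 76 was called lower, or 13 with the replicate block. Over all probe sets 1.35% were called higher and 2.69% lower in the main fit. The general stress list had 2 of 31 higher and 0 lower (0 at an unadjusted p under 0.05 in the lower direction). They were the hydrophilin gene GRE1, at 6991, 7180 and 6428 in gcn4 gln3 cells and 3480, 3193, 4244 and 4890 in gln3 cells, and the polyubiquitin gene UBI4, with 0.39.

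**Figure D3:**
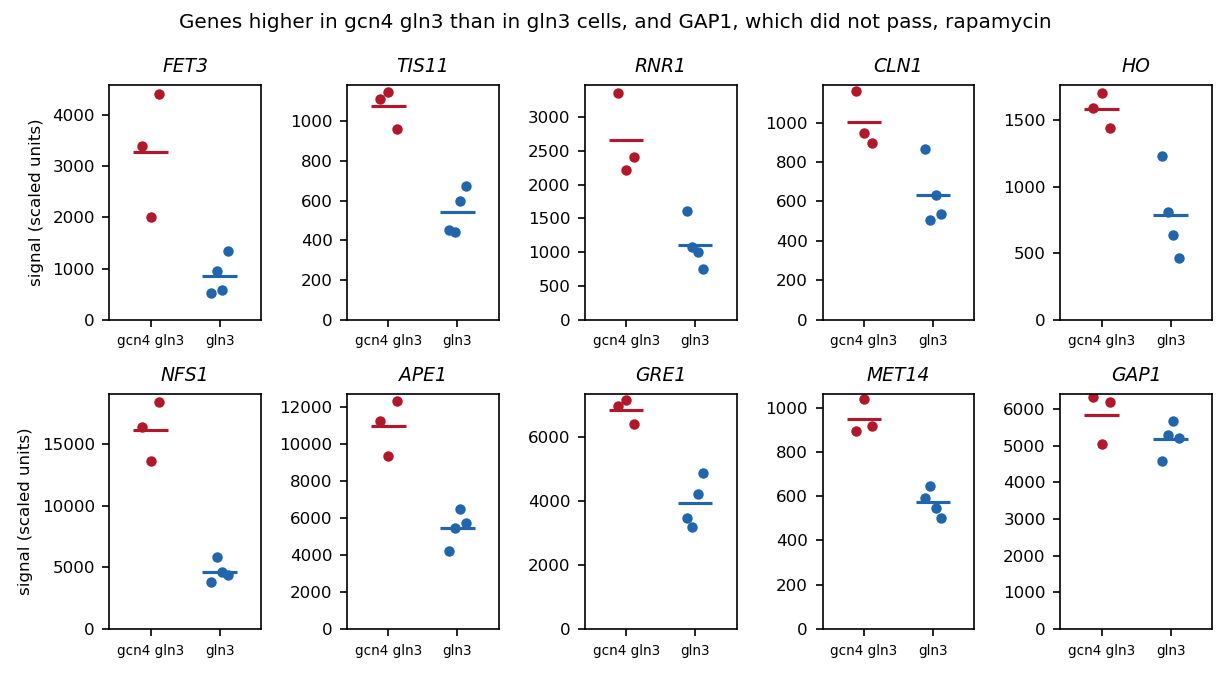
Signal of 10 genes on each array, in rapamycin (vertical axes start at 0, scaled units). Red points are the 3 gcn4 gln3 arrays and blue points the 4 gln3 arrays, with group means as bars. The 9 called genes lie higher on every gcn4 gln3 array, and GAP1 overlaps.

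A few rises separated strains in every treatment. NFS1, the cysteine desulfurase of iron-sulfur cluster assembly, was 16366, 13614 and 18348 in gcn4 gln3 cells, against 3799, 5859, 4610 and 4339 in gln3 cells (1.80 ± 0.19). Over all treatments it ran from 11180 to 18592 on the 11 gcn4 gln3 arrays and from 11648 to 20726 on the 12 gcn4 arrays. On the other genotypes its highest signal was 6887. NFS1 stands next to LEU2 on chromosome III, and LEU2 did not pass without the replicate block. The effect of the deleted gene and that of other differences between the strains cannot be told apart here.

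Probe sets 3951_at, 3952_at, 3953_at and 3954_at, which have no named gene in the annotation used, were also higher. None was above background on any gln3 array in rapamycin, so their rises are bounds: 3951_at was at least 2.84-fold higher, 3952_at at least 11.3-fold, 3953_at at least 26.2-fold and 3954_at at least 20.9-fold. The brightest, 3953_at, was 2711, 1927 and 2041 in gcn4 gln3 cells. They were above background on all gcn4 gln3, gcn4, gcn2 gln3 and gcn2 arrays of the fit and on none of the 12 wild-type or 12 gln3 arrays. What they measure was not tested.

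Without rapamycin the same 2 strains differed at 408 probe sets (5.94%), 171 lower and 237 higher (2.49% and 3.45%). That comparison shares no arrays with the one in rapamycin. It called 57 of the 185 falls in rapamycin as lower, which is 30.8% of those and 33.3% of its own, and 36 of the 93 rises as higher, 38.7% and 15.2%. Among the 58 amino acid genes it had 7 lower and 1 higher (9 and 2 with the replicate block), with a median of -0.10 in untreated cells against -0.81 in rapamycin.

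The difference between the 2 effects of losing GCN4 was tested directly, as the log2 difference in rapamycin minus that in untreated cells. It passed for 70 probe sets (1.02%), 62 in the negative and 8 in the positive direction (0.903% and 0.117%). In the 58 amino acid genes it passed for 23 in the negative direction and 0 in the positive (0 at an unadjusted p under 0.05 in the positive direction). With the replicate block these counts were 27 and 0. LEU9 had the most negative value of all named genes, -2.20 ± 0.26: it averaged 642 ± 62.0 in gcn4 gln3 cells and 612 ± 34.1 in gln3 cells without drug (SD, n = 4 each), and 103 ± 22.8 in gcn4 gln3 cells and 453 ± 87.6 in gln3 cells in rapamycin (n = 3 and 4). HOM3 averaged 840 ± 132 in gcn4 gln3 cells and 1294 ± 177 in gln3 cells without drug, where the difference was -0.63, and -1.90 was the change in that difference. ALD5, ADH5, ARG3, ARO5 and YAT2 had -2.00, -1.90, -1.80, -1.78 and -1.76.

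Some genes differed as much without the drug. ARG4 averaged 2550 ± 541 in gcn4 gln3 cells and 6418 ± 743 in gln3 cells without drug, a difference of -1.35 against -1.28 in rapamycin, and the change of 0.07 did not pass (adjusted p = 0.970). BIO4 had -1.46 without drug and -1.37 in rapamycin. SNO1 was above background on none of the 4 untreated gcn4 gln3 arrays and averaged 380 ± 76.0 in untreated gln3 cells. MET16, phosphoadenylylsulfate reductase, averaged 671 ± 147 in gcn4 gln3 cells and 448 ± 61.7 in gln3 cells without drug, a difference of 0.57 (adjusted p = 0.028), and 709 ± 38.6 in gcn4 gln3 cells and 921 ± 71.9 in gln3 cells in rapamycin, a difference of -0.37 that did not pass. The change between them, -0.94, passed (adjusted p = 0.031). In the sulfur list as a whole 10 of 26 genes were higher and 1 lower without drug.

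In the positive direction the named genes were YKR075C (1.93), MTH1 (1.91), MPC3 (1.74), PIR3 (1.12), PLN1 (1.09), MPD1 (1.08) and SEC62 (0.72). MTH1, a repressor of hexose transporter genes, averaged 282 ± 67.9 in gcn4 gln3 cells and 1099 ± 126 in gln3 cells without drug. In rapamycin it was 534, 925 and 965 in gcn4 gln3 cells and 782, 1108, 567 and 954 in gln3 cells, and the groups overlapped. MPC3, a subunit of the mitochondrial pyruvate carrier, was lower without drug by a log2 difference of -2.66 and had -0.92 in rapamycin, which did not pass (adjusted p = 0.110, or 0.00388 with the replicate block). YKR075C, MPC3, MPD1 and SEC62 each lost their call in 7 or more of 30 alternative settings.

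**Figure D4:**
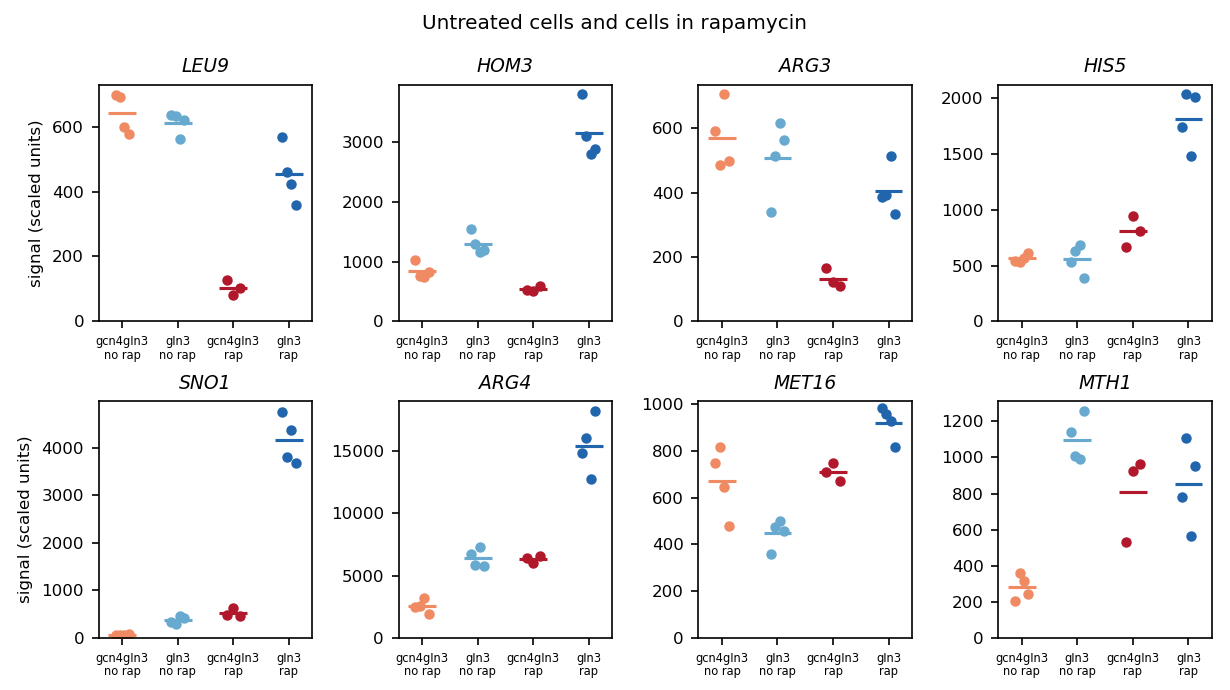
Signal of 8 genes on each array in gcn4 gln3 and gln3 cells without drug (4 arrays each) and in rapamycin (3 and 4 arrays), vertical axes from 0 in scaled units, with group means as bars. LEU9, ARG3 and HIS5 differ between the strains in rapamycin and overlap without it, ARG4 and SNO1 differ in both, and MTH1 differs without drug.

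With GLN3 present, losing GCN4 in rapamycin (gcn4 against wild type) called 1358 probe sets (19.8%), 526 lower and 832 higher (7.66% and 12.1%). This comparison shares no arrays with that of gcn4 gln3 and gln3. It called as lower 134 of the 185 falls, 72.4% of them and 25.5% of its own, and as higher 41 of the 93 rises, 44.1% and 4.93%. Of the 58 amino acid genes 45 were lower and 2 higher, with a median of -1.15 against -0.81 without GLN3.

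The difference between losing GCN4 without and with GLN3 was tested as the first log2 difference minus the second. It passed for 336 probe sets (4.89%), 195 in the negative and 141 in the positive direction (2.84% and 2.05%). Of the 58 amino acid genes 6 passed in the positive direction, and 1 in the negative (11 and 2 with the replicate block). The 6 were ARG3, ARG8, CPA1, LYS20, ARO8 and HOM2, and the 1 was ARO7. HOM2 had -1.24 without GLN3 and -1.97 with it, and LYS20 had -0.74 and -1.98. ARG3 averaged 133 ± 28.3 in gcn4 gln3 cells and 406 ± 76.4 in gln3 cells, and in the pair with GLN3 it was above background on no gcn4 array and averaged 860 ± 138 in wild-type cells. HOM3 and LEU9 had -2.53 and -2.13 without GLN3 and -2.79 and -2.20 with it, and the differences of 0.26 and 0.07 did not pass.

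SNZ1 and SNO1 of vitamin B6 synthesis went the other way, with larger falls where GLN3 was absent. SNZ1 had -3.06 without GLN3 and -2.06 with it, a difference of -1.00 ± 0.21 (adjusted p = 0.00129). SNO1 had -2.98 and -1.67. YAT2 had -2.16 and -0.87, and the difference of -1.29 also passed.

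For other genes the sign turned. DAL4 had -1.82 without GLN3 and 1.56 with it, the most negative difference of all named genes at -3.38 ± 0.39 (adjusted p = 1.69e-08). MCH5, a riboflavin transporter, was 2052, 1761 and 3145 in gcn4 gln3 cells and 5307, 5808, 4482 and 6100 in gln3 cells, a difference of -1.26, against 0.66 with GLN3. GRE1 had 0.82 without GLN3 and -2.33 with it, a difference of 3.15 ± 0.29, and APE1 had 1.01 and -1.02. Sulfur amino acid genes had 12 of 26 lower and 2 higher with GLN3, against 3 lower and 1 higher without it, and the difference passed in the positive direction for 8 and in the negative for 0 (0 at an unadjusted p under 0.05 in the negative direction). Of these 26 genes MET2, homoserine acetyltransferase, had the largest difference, 2.87, with 249, 467 and 234 in gcn4 gln3 cells and 120, 106, 177 and 132 in gln3 cells. It averaged 108 ± 16.0 in gcn4 cells and 345 ± 57.6 in wild-type cells (SD, n = 4 each). Without GLN3, MET2 did not pass in rapamycin at 1.20 (adjusted p = 0.381) or untreated at 1.54 (adjusted p = 0.0948, or 0.00914 with the replicate block), and its difference lost its call in 5 of 30 alternative settings. Among the 8 most negative named genes, SPO77 was above background on none of the 15 arrays of the 4 groups, and DAN1 on the 4 gcn4 arrays alone.

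**Figure D5:**
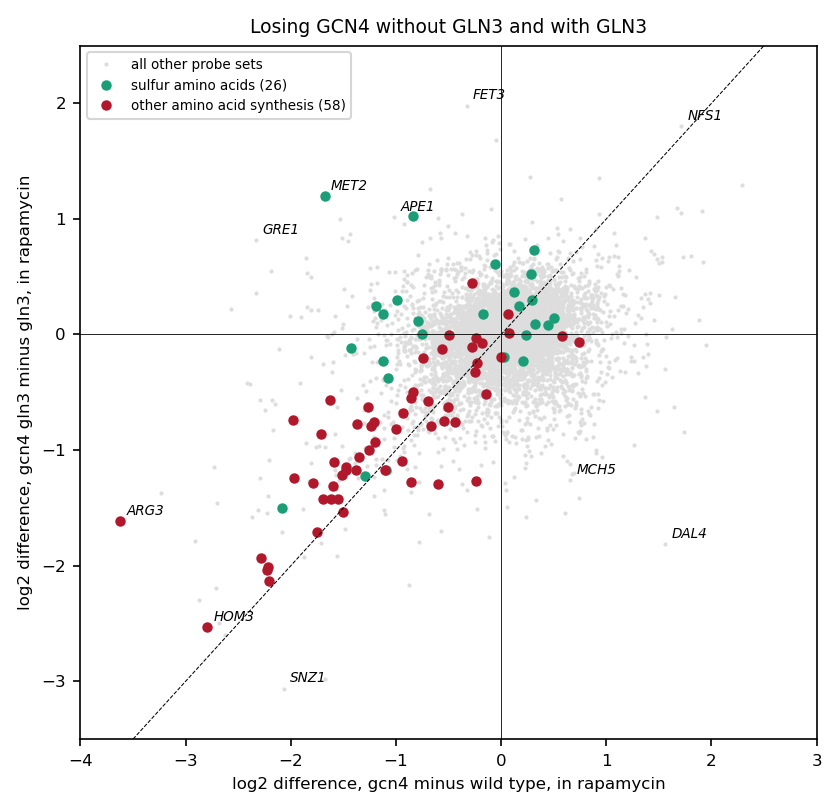
Log2 difference of gcn4 gln3 minus gln3 cells (vertical axis) against gcn4 minus wild-type cells (horizontal axis), both in rapamycin, 1 point a probe set, with the line of equal values dashed. Red points are the 58 amino acid genes and green points the 26 sulfur genes. GCN4 and the 4 unnamed probe sets lie outside the axes. Most red points lie in the lower left, below 0 on both axes, while DAL4 and MCH5 are lower only on the vertical axis and GRE1 and APE1 are higher on it and lower on the horizontal one.

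The gcn4 gln3 cells were last set against gcn2 gln3 cells in rapamycin (3 arrays each), a strain labelled as lacking the kinase that raises Gcn4 translation. The GCN2 probe set was 271, 262 and 294 in gcn4 gln3 cells and 88.5, 118 and 114 in gcn2 gln3 cells, where it was lower but still above background on all 3 arrays. The labels do not give the deleted part of the gene. The 2 groups differed at 47 probe sets (0.685%), 34 lower and 13 higher (0.495% and 0.189%). None of the 58 amino acid genes passed in limma (0 called, 6 at an unadjusted p under 0.05, and 1 called with the replicate block, ARO1 at -0.34), and their median difference was -0.02. SNZ1 averaged 921 ± 182 in gcn4 gln3 cells and 986 ± 113 in gcn2 gln3 cells, and HOM3 averaged 541 ± 39.3 in gcn4 gln3 cells and 594 ± 53.9 in gcn2 gln3 cells (SD, n = 3 each). The genes that did differ included the deleted genes GCN4 and GCN2, and NFS1, at 1.66. Higher in gcn4 gln3 cells were also 1 of 15 specific amino acid permease genes and 2 of 7 aromatic amino acid breakdown genes. The largest log2 differences in these lists were 5.61 and 4.30. This comparison shares the gcn4 gln3 arrays with the main one.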

How the data were processed

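Signals were deposited by the authors as linear intensity for 9335 probe sets, made with GCOS and MAS5 per the submitters' processing notes (versions not given in the sources used here). Arrays were already scaled: the mean after trimming 2% at each end was 1001 on all 72. Values below 16.5 (the 10th percentile) were raised to it and log2 transformed. Control probe sets were left out and 1 probe set a gene was kept, by mean signal. Background was the 30th percentile of each array, and 6865 probe sets above it on at least 3 of 69 arrays were tested. The 3 arrays left out had actin 3'/5' ratios from 43.2 to 230. Probe sets were named from the platform annotation, updated through RefSeq.

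limma 3.58.1 (R 4.3.3) fitted 18 group means, with Benjamini-Hochberg adjustment within each comparison. ± after a log2 difference is its standard error. "At least" bounds set each dim array to its own background. Alternatives covered scaling, floor, filter, arrays, replicate block and variance prior. Same-numbered arrays of both strains deviated together (r = 0.150, 0.344 and 0.512), while differently numbered ones had r from -0.448 to 0.404. Whether the numbers pair the arrays is thus not settled. The main fit does not use the numbers, and the replicate block does. Steps were tested on simulated data. Figures used matplotlib 3.10.9. Members and lists were chosen with earlier results of these data known. Named genes are the largest changes and differences, with members of the lists (for long lists the smallest p and largest changes).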

Additional observations from a re-analysis of the deposited data

Results flagged for a closer look

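The actin 3'/5' ratio set 2 arrays apart from the other 3 of their groups: gcn4 gln3 replicate 2, which was left out, at 43.2, and gln3 replicate 1 at 3.20. Among 41 genes checked in the 4 gln3 arrays 0 had an array that far from the others. Many of these genes were named because they passed the test, which favours tight groups. The usual chance of about 1 in 20 is thus no yardstick for this count. Single genes were not checked in this way on the gcn4 gln3 arrays.

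The effect of losing GCN4 differed between rapamycin and untreated cells, in a test of that difference, for LEU9 (-2.20), YDR222W (-2.07), ALD5 (-2.00), HOM3 (-1.90), ADH5 (-1.90), ARG3 (-1.80), ARO5 (-1.78) and YAT2 (-1.76), and in the positive direction for YKR075C (1.93), MTH1 (1.91), MPC3 (1.74), PIR3 (1.12), PLN1 (1.09), MPD1 (1.08) and SEC62 (0.72). It differed between cells without and with GLN3 for DAL4 (-3.38), YPS3 (-2.58), PBI1 (-2.27), YCR099C (-2.16), SPO77 (-2.15, from signals above background on none of the 15 arrays, and not called in 12 of 28 alternative settings), DAN1 (-2.04, above background on the 4 gcn4 arrays alone, and not called in 2 of 28), MCH5 (-1.92) and IMD4 (-1.91), and in the positive direction for GRE1 (3.15), MET2 (2.87), HXT5 (2.79), SPS100 (2.74), PMA2 (2.69), MF(ALPHA)2 (2.54), SPG1 (2.51) and LPX2 (2.38). All are log2 values from limma's fit.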

How the results depend on the processing

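The main comparison had 278 probe sets called. Settings that moved that count by over 1.5 times were all 72 arrays (698, with 478 lower and 220 higher), the replicate block (485, with 308 and 177), only the 7 arrays (93, with 80 and 13), a 2-fold minimum (115, with 98 and 17) and leaving out gcn4 gln3 replicate 1 (182). With 71 arrays (only gcn4 gln3 replicate 2 left out) 218 were called and 59 were higher. The 72-array fit takes back that array, with its actin ratio of 43.2, and moved the median of all probe sets to -0.11. Leaving out 1 array gave 182 to 313 calls, 143 to 185 lower and 39 to 128 higher (39 without gcn4 gln3 replicate 1 or gln3 replicate 4, 58 without gcn4 gln3 replicate 3, 56 without gln3 replicate 2), and the share of higher calls among all calls was 19.4% without gln3 replicate 4, 21.4% without gcn4 gln3 replicate 1 and 33.5% with all. Untreated, 408 became 96 with all 72 arrays, 238 with 71, 741 with the block, 103 with only the arrays compared and 104 with the 2-fold minimum, and 263 (without gcn4 gln3 replicate 1) to 410 without 1 array. The rapamycin minus untreated difference, 70, became 132 with the block, 29 with only the arrays compared and 46 with the 2-fold minimum, and 64 to 97 without 1 array. With GLN3, 1358 became 454 with all 72 arrays, 720 with only the arrays compared and 288 with the minimum, and 942 to 1322 without 1 array. The difference without and with GLN3, 336, became 211 with 71 arrays, 728 with the block, 155 with only the arrays compared and 208 with the minimum, and 231 to 362 without 1 array. Against gcn2 gln3, 47 became 22 with all 72 arrays, 74 with 71, 99 with the block, 79 with the actin ratio as a covariate (added after the data were seen), 5 with only the arrays compared and 14 with the minimum, and 13 (without gcn2 gln3 replicate 3) to 94 (without gcn2 gln3 replicate 2) without 1 array, with 16 without gcn4 gln3 replicate 1. The cause of these shifts was not tested, beyond the fewer arrays or stricter threshold of the setting. With all 72 arrays the sign turned for APE1 in the main comparison (-0.11) and for PIR3 (-0.13), PLN1 (-0.36) and SEC62 (-0.31) in the rapamycin minus untreated difference. The replicate block ended no call of a gene followed through the settings, and calls it added are given beside some of the genes only. In the main comparison it also called, among others, LYS12, TYR1, PDX3, THI4, YPS3 and PBI1, all lower. In the rapamycin minus untreated difference it added, among others, FET3 (1.22) and GRE1 (-1.08). The 3 and 4 arrays a group limit the precision, and signals at or below background give no order.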
